A study of Mus musculus with 14 samples.

Results

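The integrated stress response and the unfolded protein response were followed in the hippocampus of young mice through 10 genes: Atf4, Atf3, Ddit3 and Xbp1, which encode transcription factors, Trib3, Chac1, Asns and Sesn2, which lie downstream of ATF4, and Hspa5 and Herpud1, which act at the endoplasmic reticulum (ER). They were taken by symbol from a deposited table of 36118 genes, of which 16637 had enough counts to be tested, and all 10 were among those tested. The symbol Ddit3 stands on 2 rows of that table. The row ENSMUSG00000025408 held 210 to 329 counts per library and was used, and the row ENSMUSG00000116429 was listed at 0 in every library. Polyadenylated RNA was sequenced from the hippocampus of 14 mice at postnatal day 15, with 1 library per mouse, after room air (RA) or 85% O2 (hyperoxia, O2) from day 1 to day 14. The groups were 4 wild-type mice in room air (WT-RA), 4 wild-type mice in hyperoxia (WT-O2), 3 knockout mice in room air (KO-RA) and 3 knockout mice in hyperoxia (KO-O2), all labelled C57/BL6. The study's methods name C57BL/6N for the knockout line. The knockout is a constitutive, whole-body loss of gasdermin D (Gsdmd), a protein that opens pores in the membrane during inflammatory cell death, and every cell of these animals carries it. Its allele has a small deletion in the fifth exon, and the WT mice were littermates from matings of heterozygotes.

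In the integrated stress response, kinases that sense unfolded ER proteins, amino acid shortage, heme shortage or viral RNA phosphorylate the initiation factor eIF2. Most translation then slows while that of ATF4 mRNA increases, and ATF4 turns on genes of amino acid supply, redox balance and feedback. In the unfolded protein response, the ER sensors PERK, IRE1 and ATF6 act through ATF4, through splicing of Xbp1 mRNA and through cleaved ATF6, and raise ER chaperones and the machinery that degrades misfolded proteins. Both responses are studied in the brain because neurons and myelinating oligodendrocytes carry a heavy load of membrane and secreted proteins. The values here are total mRNA per gene, so they do not read the phosphorylation of eIF2, the translation of ATF4 or the splicing of Xbp1.

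Promoter windows from the RefSeq table for GRCm38.p6, which run from 250 bases before to 50 after the start, were found for all 10 genes, 1 window each. Motifs of these pathways were searched on either strand. The letters TGATGNAA, a C/EBP-ATF response element of the kind that ATF4 binds, occurred in 1304 of the 32851 windows in the table (3.97%) and in the windows of 5 of the 10 genes. These were Atf3, Trib3, Chac1, Asns and Herpud1, at positions -110, 14, -193, -23 and -112 with the start base counted as 0. The ER stress response element was searched only in the form CCAAT and CCACG with 9 bases between them. That form occurred in 39 windows (0.119%) and among the 10 genes only in that of Hspa5, at position -65. Other forms of the element were not searched, so their absence from the other windows is not shown. The windows of Trib3, Atf3 and Hspa5 are shown because these genes had the smallest p-values in the hyperoxia comparisons. They lie at chr2:152344011-152344310 (minus strand), chr1:191183284-191183583 (minus strand) and chr2:34771840-34772139 (plus strand) of GRCm38.p6, written 5′ to 3′ along the gene, and capitals mark the motif, which reads as the reverse complement in Trib3 and Atf3.
Trib3: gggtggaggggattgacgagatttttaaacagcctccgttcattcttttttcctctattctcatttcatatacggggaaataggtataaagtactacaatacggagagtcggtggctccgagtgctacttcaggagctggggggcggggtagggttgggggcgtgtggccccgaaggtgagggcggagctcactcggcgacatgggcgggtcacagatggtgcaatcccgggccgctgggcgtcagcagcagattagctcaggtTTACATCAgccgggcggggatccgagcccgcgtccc
Atf3: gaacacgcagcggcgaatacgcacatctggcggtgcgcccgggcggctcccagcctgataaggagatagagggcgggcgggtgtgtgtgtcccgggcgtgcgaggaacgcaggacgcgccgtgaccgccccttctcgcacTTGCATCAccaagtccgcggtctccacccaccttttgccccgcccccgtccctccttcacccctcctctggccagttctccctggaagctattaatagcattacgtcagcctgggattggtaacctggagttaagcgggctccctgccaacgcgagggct
Hspa5: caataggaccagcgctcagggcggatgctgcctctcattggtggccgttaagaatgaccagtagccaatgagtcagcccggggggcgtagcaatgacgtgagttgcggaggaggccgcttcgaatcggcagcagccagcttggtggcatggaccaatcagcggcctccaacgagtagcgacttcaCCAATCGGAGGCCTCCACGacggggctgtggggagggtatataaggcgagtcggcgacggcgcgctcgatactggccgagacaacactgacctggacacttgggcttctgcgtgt
A match to these letters describes the window and does not show that a factor binds there.

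The libraries summed to between 27272270 and 28257496 estimated counts. Gsdmd, the targeted gene, had 41 to 63 counts in the WT libraries and 22 to 42 in the KO libraries. These gene-level sums cannot tell deleted from intact transcripts. The study reports that staining found no GSDMD protein in KO brains. It also states, without showing the data, that Gsdmd transcripts were not measurable there by qRT-PCR. The records of GSD408 conflict, with hyperoxia in its title and column name and room air in its treatment field, and it was analysed as WT-O2 with results repeated without it. The WT mice are numbered GSD398 to GSD408 and the KO mice GSD489 to GSD496, so genotype and range of mouse number cannot be told apart. Markers of hippocampal neurons were present in all libraries, and their summed level (8 genes) was 647 to 1026 CPM (counts scaled for sequencing depth) in WT and 1239 to 1531 CPM in KO mice. In the opposite direction, 8 striatal markers summed to 291 to 705 CPM in WT and 72.6 to 177 CPM in KO, 8 thalamic markers to 127 to 723 CPM and 96.8 to 120.2 CPM, and 6 oligodendrocyte markers to 4811 to 19190 CPM and 3270 to 5758 CPM. No marker of these 4 lists was at 0 counts in all libraries. In bulk tissue, fewer cells of a type and less RNA per cell cannot be told apart. Each library came from a separate mouse, so the tests set differences between groups against the spread between mice. Litter was not modelled, so mice of the same litter would count as separate. In GSD408, 12 immediate early genes summed to 290.6 CPM, against 269 to 324.3 CPM over all WT-O2 mice and 452.1 to 558.5 CPM in WT-RA. The oligodendrocyte sum of GSD408, 12780 CPM, was the highest in WT-O2 and inside the WT-RA range of 7683 to 19190 CPM. That of WT-O2 mouse GSD406, 10180 CPM, was inside this range too, so this sum does not set GSD408 apart. Which record of GSD408 is right was not tested.

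**Figure D1:**
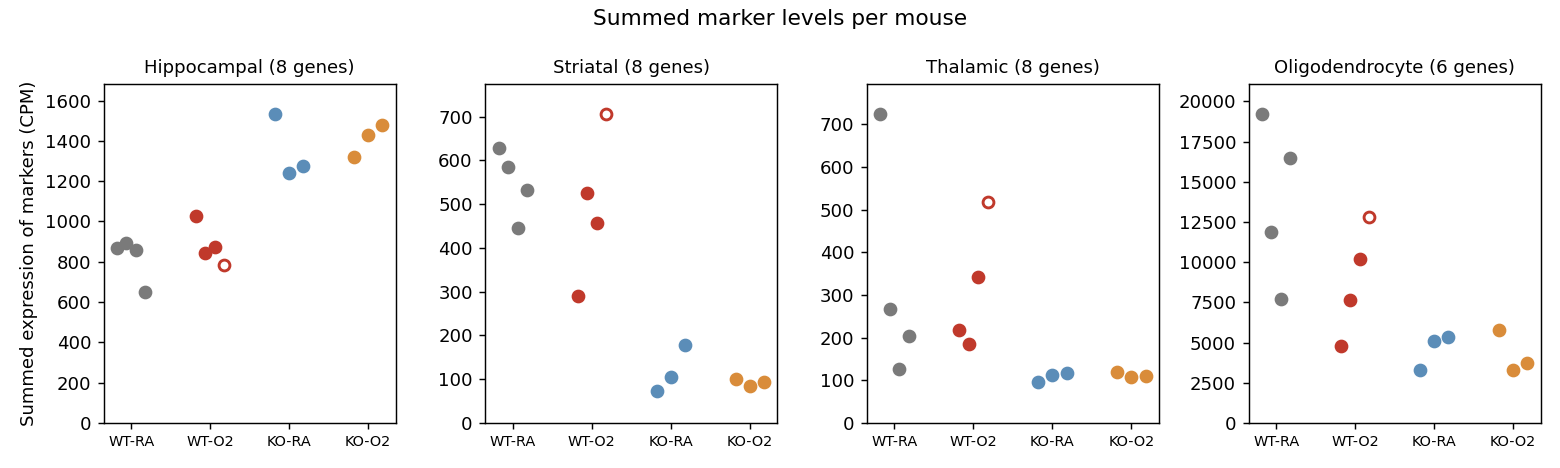
Summed CPM of marker genes of hippocampal neurons, striatal neurons, thalamic neurons and oligodendrocytes in each of the 14 mice, by group, on the vertical axis. Hippocampal markers sum to at most 1026 CPM in WT and at least 1239 CPM in KO mice, and the striatal sums do not overlap between the genotypes in the other direction.

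None of the 10 genes passed the thresholds in any of the 5 comparisons. Calls required a log2 fold change of at least 0.32 in size, an unadjusted p below 0.05 and an adjusted p (q, Benjamini-Hochberg over the genes tested) below 0.1 in edgeR's quasi-likelihood test, which are the study's thresholds. The share of all tested genes called was 0.643% in WT-O2 vs WT-RA, 0.012% in KO-O2 vs KO-RA, 10.4% in KO-RA vs WT-RA, 6.86% in KO-O2 vs WT-O2 and 0% for the interaction of genotype and exposure. DESeq2 called none of the genes to which it gave an adjusted p, and in WT-O2 vs WT-RA it gave none to 2 of the 10 (Atf3 and Trib3), which it could not call there. An unadjusted p below 0.05 was reached by 3, 1, 2, 4 and 0 of the 10 genes in these comparisons with edgeR, and by 3, 1, 2, 2 and 0 with DESeq2. Over all genes, 12.2%, 4.86%, 23.5%, 18.7% and 4.05% reached it with edgeR. The median log2 fold change of the 10 genes was 0.0019, -0.05, -0.02, -0.14 and -0.11 in the same order, against -0.0058, -0.0020, -0.0067, -0.0089 and 0.0035 over all genes.

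The width of the intervals differed among the genes. In WT-O2 vs WT-RA, the 95% interval of the log2 fold change stayed inside the 0.32 threshold in either direction for 6 of the 10 genes (Atf4, Xbp1, Asns, Sesn2, Hspa5 and Herpud1) and within 1.5-fold for 8. In KO-O2 vs KO-RA it stayed inside the threshold for 5 and within 1.5-fold for 8. The genes whose intervals reached past 1.5-fold in both were Atf3 and Trib3, which had 3 to 34 and 4 to 21 counts per library. A change of 1.5-fold or more was thus outside the interval for 8 genes and was not resolved for Atf3 and Trib3.

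**Figure D2:**
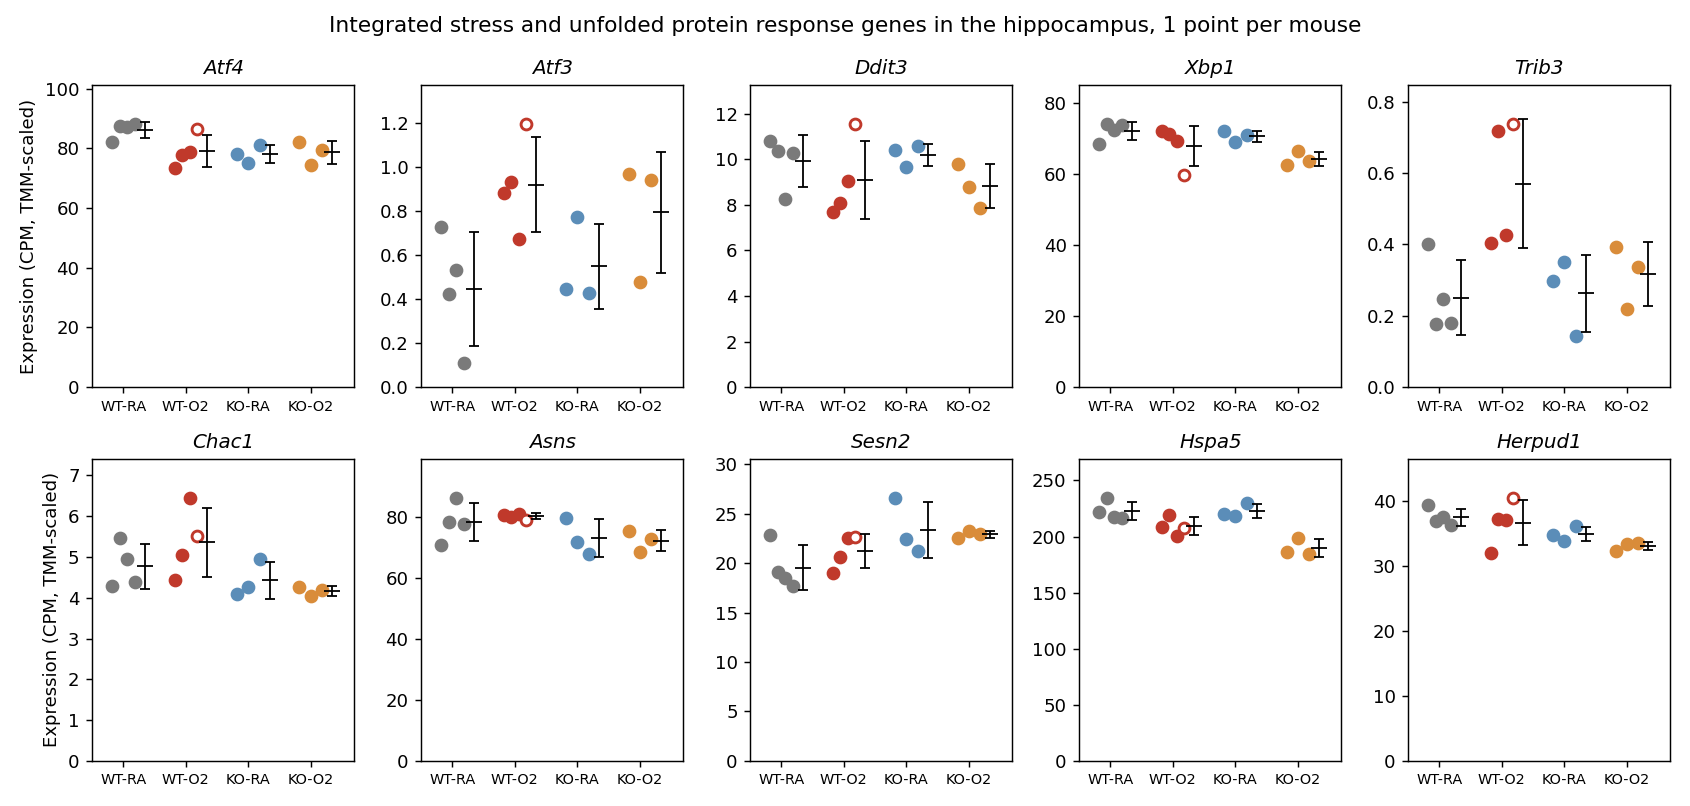
TMM-scaled CPM of the 10 genes in each mouse (points), by group, with the mean and SD of each group (bars), and with mouse GSD408 drawn as an open circle. Hspa5 lies lowest in the 3 KO-O2 mice at 185 to 199 CPM, and Trib3 is at most 0.400 CPM in WT-RA and at least 0.403 CPM in WT-O2.

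In WT mice, the question was whether hyperoxia moved the transcription factors of the 2 responses. Atf4, the effector that phosphorylated eIF2 induces, was at 82.2, 87.6, 87.1 and 88.1 CPM in WT-RA and at 73.4, 77.9, 78.8 and 86.4 CPM in WT-O2. Of the 4 WT-O2 mice, 3 were below all WT-RA mice, and GSD408 was within their range. The group means were 86.2 ± 2.7 and 79.1 ± 5.4 CPM (SD, n = 4 each), and their log2 fold change was -0.12 (standard error, SE, 0.06), with an unadjusted p below 0.05 but edgeR q = 0.392. Without GSD408 it was -0.17 (edgeR q = 0.215), and q ran from 0.215 to 0.641 over 15 alternatives. Atf3, a stress-induced factor that is also an immediate early gene, had 20, 12, 15 and 3 counts in WT-RA and 24, 26, 19 and 34 counts in WT-O2. These are 0.727, 0.423, 0.530 and 0.108 CPM against 0.879, 0.932, 0.673 and 1.19 CPM, and the highest WT-RA mouse exceeded the lowest WT-O2 mouse. The log2 fold change of Atf3 was 1.03 (SE 0.41, 95% interval of the fold 1.12 to 3.76, edgeR q = 0.32), with an unadjusted p below 0.05. Without GSD408 that p was above 0.05 and the value was 0.88 (edgeR q = 0.45). It was 0.47 with that mouse as room air, and q ran from 0.182 to 0.79 over the 13 alternatives that gave one. Other immediate early genes went the other way, since all 12 of a list without Atf3 were lower in WT-O2 and 5 of them were called. Ddit3, which encodes the factor CHOP of prolonged ER stress, was at 10.8, 10.4, 8.27 and 10.3 CPM in WT-RA and 7.69, 8.10, 9.06 and 11.5 CPM in WT-O2. The WT-O2 values of Ddit3 spanned those of WT-RA, with GSD408 the highest of all 14 mice. The log2 fold change of Ddit3 was -0.13 (SE 0.13). It was -0.26 without GSD408 (SE 0.11, edgeR q = 0.377) and -0.31 with that mouse as room air, each with an unadjusted p below 0.05, and q ran from 0.36 to 0.933 over 15 alternatives. Xbp1, whose mRNA is spliced by IRE1 to give the active factor, was at 68.4, 73.9, 72.4 and 73.8 CPM in WT-RA and 71.9, 71.0, 69.0 and 59.7 CPM in WT-O2. The lowest Xbp1 value was that of GSD408, and the other 3 WT-O2 mice were within the range of WT-RA. The log2 fold change of Xbp1 was -0.09 (SE 0.06, edgeR q = 0.603).

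Among the genes downstream of ATF4, Trib3 was the only one of the 10 whose values did not overlap between WT-RA and WT-O2, which was the case for 5.99% of all genes. Trib3, a pseudokinase that restrains ATF4 and CHOP, had 11, 5, 7 and 5 counts in WT-RA and 11, 20, 12 and 21 counts in WT-O2. In CPM these are 0.400, 0.176, 0.247 and 0.179 against 0.403, 0.717, 0.425 and 0.736, so the highest WT-RA and the lowest WT-O2 mouse were nearly equal, at 11 counts each. The group means were 0.251 ± 0.105 and 0.570 ± 0.181 CPM (SD, n = 4 each). Trib3 thus had a log2 fold change of 1.18 (SE 0.38, 95% interval of the fold 1.29 to 3.97, edgeR q = 0.219), with an unadjusted p below 0.05. It was 1.03 without GSD408 (edgeR q = 0.333) and 0.56 with that mouse as room air, and q ran from 0.114 to 0.732 over the 13 alternatives that gave one. Chac1, which degrades glutathione, was at 4.29, 5.46, 4.95 and 4.38 CPM in WT-RA and 4.43, 5.05, 6.44 and 5.51 CPM in WT-O2, and the groups overlapped. The log2 fold change of Chac1 was 0.17 (SE 0.13, edgeR q = 0.652). Asns, which makes asparagine and is a standard readout of ATF4, averaged 78.4 ± 6.3 CPM in WT-RA and 80.4 ± 0.9 CPM in WT-O2 (SD, n = 4 each). The 4 WT-O2 values of Asns, 79.2 to 81.3 CPM, lay inside the WT-RA range of 71.0 to 86.3 CPM. Sesn2, a leucine sensor that restrains mTORC1, averaged 19.6 ± 2.3 CPM in WT-RA and 21.2 ± 1.7 CPM in WT-O2 (SD, n = 4 each), with overlap. Its log2 fold change was 0.12 (SE 0.09, edgeR q = 0.662).

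Of the ER genes in WT mice, Hspa5 encodes BiP, the main chaperone of the ER lumen, which also holds the ER sensors inactive. It was at 222, 234, 218 and 217 CPM in WT-RA and at 209, 220, 201 and 208 CPM in WT-O2. Of the WT-O2 mice, 3 were below all WT-RA mice, and the log2 fold change was -0.09 (SE 0.05, edgeR q = 0.49). Herpud1, a scaffold of ER-associated degradation, averaged 37.5 ± 1.3 CPM in WT-RA and 36.6 ± 3.5 CPM in WT-O2 (SD, n = 4 each). The WT-O2 range of Herpud1, 32.0 to 40.4 CPM, held all WT-RA values, and GSD408 was again the highest.

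In KO mice, Hspa5 had the smallest p-value of the 10 genes. It was at 220, 218 and 230 CPM in KO-RA and at 187, 199 and 185 CPM in KO-O2, with no overlap. The group means were 222 ± 6 and 190 ± 8 CPM (SD, n = 3 each), and the log2 fold change was -0.23 (SE 0.06, 95% interval of the fold 0.785 to 0.927). Its unadjusted p ranked 24 of the 16637 genes, but q was 0.66 (edgeR), and the log2 fold change did not reach 0.32 in size. With DESeq2 q was 0.0915, the lowest of a range from 0.0915 to 1 over 13 alternatives, and the log2 fold change lay between -0.26 and -0.20 in all of them. Xbp1 and Herpud1 also did not overlap between KO-RA and KO-O2, where 11.8% of all genes did not. Xbp1 was at 72.0, 68.8 and 70.8 CPM in KO-RA and 62.3, 66.4 and 63.6 CPM in KO-O2, which gave a log2 fold change of -0.14 (edgeR q = 0.997). Herpud1 was at 34.7, 33.8 and 36.0 CPM in KO-RA and 32.3, 33.3 and 33.5 CPM in KO-O2. For Herpud1 the gap between the groups was small, and its log2 fold change was -0.08 (SE 0.07).

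Atf4 in KO mice was at 78.1, 75.0 and 81.3 CPM in room air and 82.1, 74.5 and 79.3 CPM in hyperoxia, and the ranges overlapped almost fully. The 95% interval of the fold change of Atf4 ran from 0.915 to 1.11. Atf3 had 12, 22 and 12 counts in KO-RA and 27, 13 and 25 counts in KO-O2, where 2 of the 3 KO-O2 mice were above all KO-RA mice. Its log2 fold change was 0.53 with an SE of 0.47. Trib3 had 8, 10 and 4 counts in KO-RA and 11, 6 and 9 counts in KO-O2, with overlap. The 95% interval of its fold change, 0.601 to 2.41, held the 2.26-fold value of the WT comparison. Ddit3 averaged 10.2 ± 0.5 CPM in KO-RA and 8.82 ± 0.97 CPM in KO-O2 (SD, n = 3 each), with 1 KO-O2 mouse inside the KO-RA range. Its log2 fold change was -0.21 (SE 0.15, edgeR q = 0.997). Chac1, Asns and Sesn2 overlapped between the KO groups. Chac1 averaged 4.43 ± 0.45 and 4.17 ± 0.12 CPM, Asns 73.2 ± 6.1 and 72.4 ± 3.5 CPM, and Sesn2 23.4 ± 2.8 and 22.9 ± 0.3 CPM (SD, n = 3 each).

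**Figure D3:**
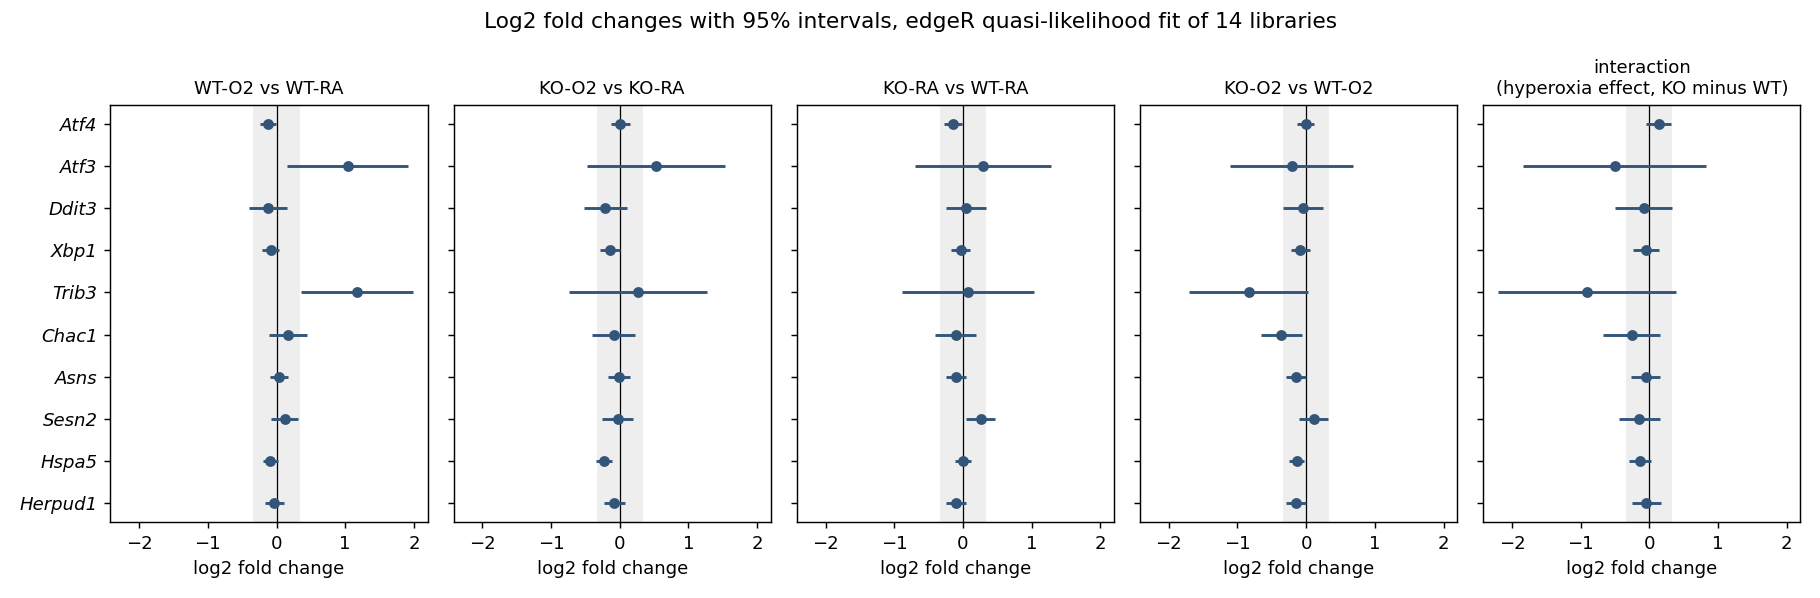
Log2 fold changes of the 10 genes in the 5 comparisons (points) with 95% intervals (lines), on the horizontal axis, and a grey band for values below the 0.32 threshold in either direction. The intervals of Atf3 and Trib3 are the widest, and that of Hspa5 in KO-O2 vs KO-RA runs from -0.35 to -0.11.

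The interaction asks whether hyperoxia acted differently in KO and in WT mice, and no gene of the 16637 was called in it. None of the 10 genes had an unadjusted p below 0.05, and all had an adjusted p of 1 (edgeR). A negative value means that the log2 fold change with hyperoxia was lower in KO than in WT mice. The interaction of Atf4 was 0.13 (SE 0.09). The smallest p was that of Hspa5, with an interaction of -0.14 (95% interval -0.30 to 0.02). For Trib3 the interaction was -0.91 (95% interval -2.21 to 0.39), or -0.76 without GSD408 and -0.29 with that mouse as room air. A difference between the genotypes in the response of these genes was therefore not detectable with these mice, and for Trib3 the interval also held large differences. Without GSD408 the interaction of Atf4 was 0.18 with an unadjusted p below 0.05 (edgeR q = 0.969).

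Between the genotypes in room air, Sesn2 and Atf4 had unadjusted p-values below 0.05. Sesn2 was at 22.8, 19.2, 18.5 and 17.7 CPM in WT-RA and at 26.6, 22.4 and 21.2 CPM in KO-RA. The highest WT-RA mouse was above 2 of the 3 KO-RA mice. The log2 fold change of Sesn2 was 0.26 (SE 0.10, edgeR q = 0.118), below the threshold of 0.32. Sesn2 passed all thresholds when WT-RA mouse GSD398 was left out (0.35, edgeR q = 0.0258) or KO-RA mouse GSD496 was left out (0.34, edgeR q = 0.0897), and its q ran from 0.0258 to 0.444 over 14 alternatives. Without KO-RA mouse GSD489 the log2 fold change of Sesn2 was 0.16, with an unadjusted p above 0.05. Atf4 averaged 78.1 ± 3.2 CPM (SD, n = 3) in KO-RA, against the WT-RA mean of 86.2 CPM, and the log2 fold change was -0.14 (SE 0.06, edgeR q = 0.167). Atf4 and Herpud1 did not overlap between WT-RA and KO-RA, as was the case for 19.6% of all genes. The KO-RA values of Atf4, 75.0 to 81.3 CPM, were all lower, although the gap to the lowest WT-RA mouse, GSD398 at 82.2 CPM, was small. Herpud1 was at 36.3 to 39.3 CPM in WT-RA and 33.8 to 36.0 CPM in KO-RA, and its log2 fold change was -0.10 (SE 0.07). Hspa5 averaged 222 CPM in both groups, with a 95% interval of the fold change from 0.926 to 1.08. For Atf4, the comparisons of WT-O2 and of KO-RA with WT-RA share the same 4 WT-RA mice. Its means in WT-O2, KO-RA and KO-O2 were 79.1, 78.1 and 78.7 CPM, which differed by less than the spread between mice.

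Between the genotypes in hyperoxia, 4 of the 10 genes had an unadjusted p below 0.05, each lower in KO-O2. Chac1 was at 4.43, 5.05, 6.44 and 5.51 CPM in WT-O2 and at 4.26, 4.04 and 4.20 CPM in KO-O2, with no overlap. Its log2 fold change was -0.36 (SE 0.14, 95% interval of the fold 0.633 to 0.955, edgeR q = 0.158). It passed all thresholds when WT-O2 mouse GSD404 was left out (-0.44, edgeR q = 0.0767), and q ran from 0.0767 to 0.385 over 14 alternatives. Asns was at 79.2 to 81.3 CPM in WT-O2 and 68.7 to 75.6 CPM in KO-O2, again with no overlap, at a log2 fold change of -0.15 (edgeR q = 0.254). Hspa5 was at 201 to 220 CPM in WT-O2 and 185 to 199 CPM in KO-O2, with no overlap, and its log2 fold change was -0.14 (edgeR q = 0.153). Herpud1 was at 32.0 to 40.4 CPM in WT-O2 and 32.3 to 33.5 CPM in KO-O2, with overlap, at a log2 fold change of -0.15 (edgeR q = 0.26). Trib3 had 11 to 21 counts in WT-O2 and 6 to 11 counts in KO-O2, and its CPM did not overlap, although 1 library of each group held 11 counts. The log2 fold change of Trib3 was -0.84 (SE 0.40, 95% interval of the fold 0.308 to 1.02, edgeR q = 0.284), with an unadjusted p above 0.05. Thus 4 of the 10 genes did not overlap, against 19% of all genes. Without GSD408, 2 of the 4 genes kept an unadjusted p below 0.05, Chac1 at -0.34 (edgeR q = 0.285) and Hspa5 at -0.14 (edgeR q = 0.268). Asns at -0.15 (edgeR q = 0.341) and Herpud1 at -0.09 (edgeR q = 0.565) did not, while Xbp1 reached it at -0.13 (edgeR q = 0.216). Over 14 alternatives, DESeq2 included, q ran from 0.142 to 0.534 for Asns, 0.128 to 0.409 for Hspa5, 0.216 to 0.75 for Xbp1 and 0.0521 to 0.565 for Herpud1, whose log2 fold change was -0.21 without GSD404. This comparison shares KO-O2 mice with KO-O2 vs KO-RA and WT-O2 mice with WT-O2 vs WT-RA, so the low Hspa5 values of KO-O2 and the high Trib3 values of WT-O2 enter in both.

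The genotype comparisons coincide with the marker differences given above. All 8 striatal, 6 of 8 thalamic and all 6 oligodendrocyte markers were called lower in KO-RA than in WT-RA, and 6 of 8 hippocampal markers were called higher. In KO-O2 vs WT-O2 the counts were all 8 striatal, 6 of 8 thalamic and 4 of 6 oligodendrocyte markers lower and 4 of 8 hippocampal markers higher. Astrocyte markers (6 genes) summed to 1612 to 1969 CPM in WT and 2148 to 2377 CPM in KO mice, without overlap, but did not all go the same way. In KO-RA vs WT-RA, 5 were higher, of which 2 were called, Gfap and Slc1a3 (0.45 and 0.48, edgeR q = 0.00521 and 0.000694). The 1 lower gene, Aldh1l1, did not overlap and was at -0.21 (edgeR q = 0.0429), below the threshold on size. In KO-O2 vs WT-O2, 4 were higher, of which Slc1a3 was called (0.41, edgeR q = 0.00314), and 2 were lower. These 3 genes are named after their values were seen. The part of these tissue differences in the values of Sesn2, Atf4, Chac1, Asns, Hspa5 and Herpud1 was not tested. Within a genotype, oligodendrocyte markers summed to 7683 to 19190 CPM in WT-RA and 4811 to 12780 CPM in WT-O2. In KO mice, where Hspa5 was lower in hyperoxia, they summed to 3304 to 5320 CPM in KO-RA and 3270 to 5758 CPM in KO-O2. Choroid plexus markers, of a secretory epithelium, varied from 36.9 to 3269 CPM among KO-RA and from 106 to 3395 CPM among KO-O2 mice.

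Other genes of the pathways were examined in lists of sensors and eIF2 subunits (19 genes), other ATF4 targets (28 genes, of which 26 were tested), tRNA synthetases (12 genes), other ER chaperones and degradation factors (26 genes) and paralogs of the 10 genes (10 genes). In WT-O2 vs WT-RA, 18 of the 26 other ATF4 targets were higher, 5 of them with an unadjusted p below 0.05, and the median log2 fold change was 0.07. The 1 called gene of this list was lower. Cebpg, a partner of ATF4 in binding DNA, fell without overlap from 25.7 ± 0.7 to 20.3 ± 1.5 CPM (SD, n = 4 each), and its log2 fold change was -0.34 (SE 0.07, edgeR q = 0.0663). The call on Cebpg was lost when only the 2 groups were fitted, when GSD408 was taken as room air, and without WT-RA mouse GSD399 or WT-O2 mouse GSD404, GSD405 or GSD408, with log2 fold changes from -0.34 to -0.25. Ddit4, an inhibitor of mTORC1, averaged 40.7 ± 6.9 and 57.9 ± 15.1 CPM (SD, n = 4 each) and was called by DESeq2 but not by edgeR (log2 fold change 0.51, edgeR q = 0.216). Ddit4 is named here after its values were seen. Among the ER chaperones and degradation factors, 17 of 26 were lower in WT-O2, 3 of them with an unadjusted p below 0.05 against 1 higher gene, and none was called. In this list 2 genes were lower and 0 higher without overlap, beside 5.99% of all genes without overlap in either direction. The sensors and the tRNA synthetases had 10 of 19 and 9 of 12 genes higher and none called. The paralogs had 9 of 10 genes lower, 2 of them with an unadjusted p below 0.05, a median of -0.11 and none called. The smallest p among them was that of Herpud2, the paralog of Herpud1, at -0.13 (SE 0.05, edgeR q = 0.326). The gene with the smallest p among the sensors was Ppp1r15b, a phosphatase subunit that removes phosphate from eIF2, whose log2 fold change was -0.15 (SE 0.05, edgeR q = 0.214).

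No gene of these lists was called in KO mice between KO-O2 and KO-RA. The ER chaperones and degradation factors had 16 of 26 genes lower, 5 of them with an unadjusted p below 0.05 against 1 higher gene, and 7 lower and 1 higher without overlap, beside 11.8% of all genes without overlap in either direction. Pdia4, a disulfide isomerase of the ER, had the smallest p and was at 46.3 ± 2.5 CPM in KO-RA and 37.8 ± 1.8 CPM in KO-O2 (SD, n = 3 each), with a log2 fold change of -0.29 (SE 0.06, edgeR q = 0.339). In WT mice the log2 fold change of Pdia4 was -0.14 (edgeR q = 0.273), and its interaction was -0.15 (edgeR q = 1). Hsp90b1, Manf, Pdia6 and Creld2 were the other 4 lower genes with an unadjusted p below 0.05, and are named after their values were seen. The median of this list was -0.04, against -0.0020 over all genes, and the log2 fold changes of its genes ran from -0.291 to 0.205. Of the other ATF4 targets, 15 of 26 were higher in KO-O2, 3 of them with an unadjusted p below 0.05, and 7 were higher and 1 lower without overlap. The one with the smallest p was Ddit4, at 41.1 ± 5.0 and 55.2 ± 8.4 CPM (SD, n = 3 each), with a log2 fold change of 0.42 (edgeR q = 0.997). Ppp1r15a, the stress-induced counterpart of Ppp1r15b, had the smallest p among the sensors (log2 fold change 0.29, edgeR q = 0.997).

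**Figure D4:**
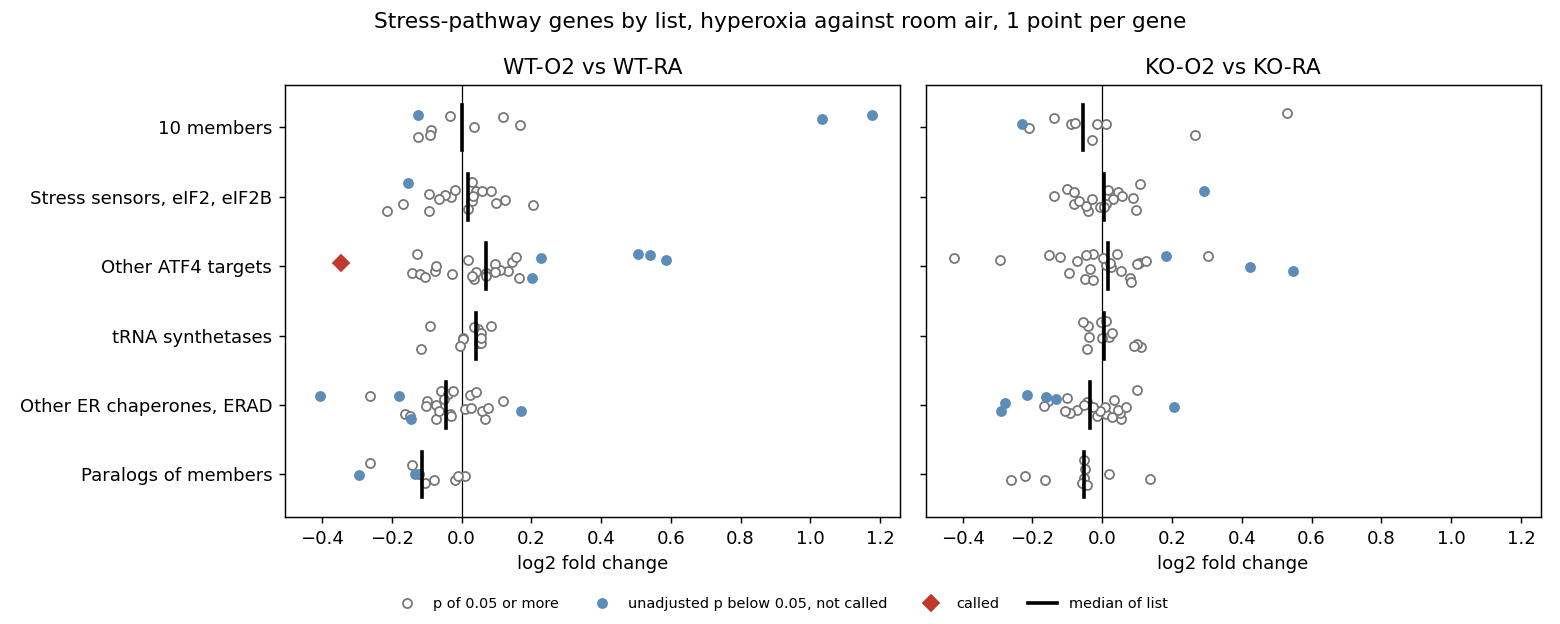
Log2 fold change in hyperoxia of each gene of the pathway lists in WT and in KO mice, with a bar at the median of each list. White points have an unadjusted p of 0.05 or more, blue points a lower p without a call and the red diamond is a called gene, Cebpg at -0.34 in WT.

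Between KO-RA and WT-RA, 5 genes of these lists were called. Pck2, the mitochondrial form of phosphoenolpyruvate carboxykinase, was higher by 0.40 on the log2 scale (12.1 ± 1.1 CPM in WT-RA and 16.0 ± 0.4 CPM in KO-RA, edgeR q = 0.00995). Stc2, a secreted glycoprotein, was higher by 0.68 (edgeR q = 0.0873), and its call was lost in the fit of 2 groups, with GSD408 as room air, and without WT-RA mouse GSD399 or GSD401 or any 1 of the 3 KO-RA mice (log2 fold change 0.40 to 0.74). Sec24d, a coat protein of vesicles that leave the ER, was higher by 0.39 (25.8 ± 1.7 and 33.8 ± 1.0 CPM, edgeR q = 0.00311). Sdf2l1, which works with BiP in the ER, was lower at -0.55 (5.84 ± 0.66 and 3.99 ± 0.21 CPM, edgeR q = 0.0323), and its call was lost with GSD408 as room air (-0.42) and without KO-RA mouse GSD489 (-0.53) or GSD490 (-0.52). Sesn3, a paralog of Sesn2, was lower at -0.37 (132 ± 11 and 102 ± 8 CPM, edgeR q = 0.00779), and its call was lost without WT-RA mouse GSD401 (-0.32) or KO-RA mouse GSD490 (-0.31). Sesn2 itself had the opposite sign in this comparison. In KO-O2 vs WT-O2 the called genes were Sesn3, lower at -0.40 (131 ± 7 and 98.9 ± 7.4 CPM, edgeR q = 0.00699), and Slc7a3, a transporter of cationic amino acids, lower at -0.98 (13.8 ± 2.3 and 6.97 ± 0.94 CPM, edgeR q = 0.032), whose call was lost without KO-O2 mouse GSD491 (-0.96) or GSD495 (-0.90). The counts called in room air were 2 of 26 other ATF4 targets, 2 of 26 ER genes and 1 of 10 paralogs. In hyperoxia they were 1 of 26, 0 of 26 and 1 of 10. None of the 19 sensors and eIF2 subunits and none of the 12 tRNA synthetases was called in either comparison. Over all genes the shares called were the 10.4% and 6.86% given above. Errors in this paragraph are SD over 4 WT and 3 KO mice. These lists carry the same marker differences between the genotypes as the 10 genes, and their part in the calls was not tested.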

How the data were processed

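The values deposited by the authors are estimated counts for each gene in polyadenylated RNA of 14 mice, made with Kallisto on GRCm39 and summed to genes with tximport. Versions and the count scaling in tximport are not given in the sources used here. Depending on the library, 41% to 43.2% of them were fractional, and all were rounded. All columns of the table were matched to a mouse.

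After filterByExpr and TMM scaling, edgeR (version 4.0.16, under R 4.3.3) was run on all 14 libraries jointly, with a coefficient for each group and no covariate. The study used DESeq2, and here the quasi-likelihood F-test of edgeR is the main test, adjusted by Benjamini-Hochberg over 16637 genes, with the study's thresholds, and DESeq2 1.42.0 is an alternative. Tests are two-sided. Log2 fold changes carry edgeR's prior count of 0.125, and 95% intervals come from their standard errors. They cover the spread between these mice and counting error.

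Of 50 log2 fold changes of the 10 genes, 22 were below 1 standard error. These are given in the text only as levels or intervals, though plotted with their intervals. Ddit3 in WT mice is the exception, since its value depends on GSD408. Some of the larger values are also given only as levels or only plotted. From each other list, called genes are named, at most 4 per comparison with the smallest p, and where none is called, the 1 gene with the smallest p may be named. Genes named beyond this rule are said to have been chosen after their values were seen. The genes and lists were chosen with earlier results of these data known. Levels are CPM (counts scaled by TMM), computed here, and marker genes were summed per mouse. The edgeR steps were tested on simulated data with set hyperoxia effects, the same in both genotypes. The changed genes lay above a minimum mean level that Atf3 and Trib3, at 0.68 and 0.36 CPM on average, do not reach. Differences between the genotypes were not simulated.

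The alternatives were DESeq2, its size factors in edgeR, library size only, no filter on low counts, at least 10 counts in every library, only the 2 groups compared, mouse GSD408 as room air, and each mouse left out in turn.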

Additional observations from a re-analysis of the deposited data

Results flagged for a closer look

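In the WT-RA group, Atf4 in mouse GSD398 stood apart from the other 3 mice, at 82.2 CPM against 87.1 to 88.1 CPM. It was found by comparing the gap between the lowest mouse and its neighbour with the range of the group (Dixon's ratio). Of 20 groups of 4 mice tested in this way, 1 was found, and chance gives about 1 in 20. GSD398 is the WT-RA mouse nearest to the KO-RA range of Atf4.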

How the results depend on the processing

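Of the 419 recomputed log2 fold changes of the 10 genes that were at least 1 standard error in size, 415 kept their direction and side of the thresholds, 3 passed the thresholds (Sesn2 and Chac1, given above) and 1 turned. This was Xbp1 in WT-O2 vs WT-RA, at 0.02 (0.0213) with mouse GSD408 as room air. The 415 include Atf3 and Trib3 in WT-O2 vs WT-RA with DESeq2, which gave no adjusted p there and could not call them. Of the 22 smaller values, 18 changed sign under an alternative. The cause was not tested. With each mouse left out, 0 to 1 of the 10 genes were called in KO-RA vs WT-RA and 0 to 1 in KO-O2 vs WT-O2.

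Over all genes, the 107 called in WT-O2 vs WT-RA became 310 with DESeq2, 20 with only the 2 groups and 6 with GSD408 as room air. With a mouse left out they ranged from 13 (without GSD405) to 272 (without GSD398), and were 22 without GSD399, 177 without GSD401, 33 without GSD404 and 59 without GSD406. In KO-O2 vs KO-RA the 2 called became 13 with DESeq2, 6 without a filter, 4 with only the 2 groups, 0 with GSD408 as room air and 1 to 4 with a mouse left out. In KO-RA vs WT-RA, leaving out a mouse gave 1076 (without GSD489) to 1929, and in KO-O2 vs WT-O2 675 (without GSD495) to 1283. The filter of 10 counts in every library removed Atf3 and Trib3. The median log2 fold change of all genes lay between -0.03 and 0.0083 under all settings. No paired analysis was possible because the groups share no replicate numbers.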
